A study of Mus musculus with 6 samples.

Results

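Translation initiation and elongation factors were followed across 6 RNA sequencing libraries of whole mouse hearts at stage E13.5 of embryonic development. Members were the listed gene symbols that begin with Eif or Eef and a digit, apart from the eIF2 kinases, the eIF4E-binding proteins and the gamma subunit of eIF2. This rule took 57 of 23284 listed genes. Not every member is itself a translation factor: Eif2c1, Eif2c2, Eif2c3 and Eif2c4 are older symbols of the Argonaute genes of RNA silencing, and other members, such as Eif4a3, Eef1e1 and Eef2k, have other roles.

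The 3 Tfam KO libraries came from Tfam fl/fl embryos with the Nkx2.5 IRES-Cre allele, and the 3 Control libraries from Tfam fl/+ embryos with the same Cre allele. Tfam encodes mitochondrial transcription factor A, which packages and transcribes mitochondrial DNA. Strain C57BL/6, stage and tissue were shared by both groups, and every library was a pool of 5 frozen hearts. The Cre is driven from the Nkx2-5 locus, active in the cardiac lineage, so cells outside that lineage keep their floxed alleles, and Controls keep 1 intact allele in recombined cells. Tfam itself was at 3.97, 4.77 and 6.22 FPKM in the Tfam KO libraries and 4.64, 5.55 and 6.62 FPKM in the Control libraries. Its log2 fold change was -0.43 with size factors (SE 0.15, limma adjusted p = 0.13997) and -0.15 as deposited (adjusted p = 0.651), so the targeted gene was a weak check of the labels at the level of the whole gene.

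Initiation factors bring the initiator tRNA and the small ribosomal subunit to the cap of an mRNA, scan for a start codon and release the factors so that the large subunit can join. The heterotrimer eIF2 carries the tRNA as a GTP-bound complex and eIF2B recharges it with GTP. Phosphorylation of eIF2 alpha turns eIF2 into an inhibitor of eIF2B, which is the common step of the integrated stress response. Elongation factors then deliver aminoacyl-tRNA (eEF1A) and move the ribosome along the mRNA (eEF2).

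Values were deposited as log2(FPKM + 1), where FPKM is reads scaled by transcript length and library total. The libraries held 12370092 to 18078620 reads, and the ribosomal RNA precursor Rn45s took 14.9% to 31.2% of reads in Tfam KO libraries and 27.8% to 32.5% in Control libraries. Over the tested genes the deposited values had a median log2 ratio, Tfam KO over Control, of 0.28, and it was 0.00236 once each library was divided by its size factor. For this reason tests use the size factors, values as deposited stand beside them, and rose or fell is written of genes past an adjusted p of 0.05 under both. All 215 genes higher with size factors also passed as deposited, but only 103 of the 281 lower genes did. The second condition thus removed no higher gene and is a stricter rule for lower genes only. Cardiomyocyte markers summed to 6278 to 10330 scaled FPKM in Tfam KO libraries and 8808 to 11200 in Controls, with all 6 markers detected. Endothelial sums were 106 to 116 in Tfam KO libraries and 106 to 113 in Controls, and those of 6 epicardial and fibroblast genes 189 to 206 in Tfam KO libraries and 148 to 219.5 in Controls. Erythroid sums were 3324 to 10150 in Tfam KO libraries and 6226 to 12910 in Controls. Macrophage sums did not overlap, at 10.8 to 13.46 in Tfam KO libraries and 15.4 to 17.4 in Controls. The macrophage genes did not move together. With size factors the log2 fold changes were -0.59 for Lyz2, -0.38 for Cd68, -0.001 for Csf1r and 0.10 for Mrc1. The sum of 5 liver and lung markers was 0.1001 to 2.63 in Tfam KO libraries and 2.22 to 7.99 in Controls. Of all these markers 1 was called with size factors, the macrophage gene Lyz2, which was lower, and the lung gene Sftpc was at 0 in all libraries. As deposited Lyz2 did not pass (limma adjusted p = 0.387). On that scale the endothelial gene Emcn (adjusted p = 0.0475) was higher. So were Postn (0.0362) and Pdgfra (0.0443) of the epicardial and fibroblast genes, and the liver gene Alb was lower (3.13e-05). The part of these markers in the results was not tested, and in whole hearts fewer cells of a type and less RNA per cell cannot be told apart.

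In Tfam KO hearts 4 factor genes rose: Eif2s2, Eif3c, Eif5 and Eif2b3. They encode the beta subunit of eIF2, a core subunit of eIF3, the protein that makes eIF2 hydrolyse its GTP, and the gamma subunit of eIF2B. Eef1a2, the muscle and neuron form of eEF1A, was lower with size factors only. Of the 57 members, 53 reached a mean of 1 FPKM over the 6 libraries and were tested. With size factors 4 of 53 were called higher, where 1.99% of all 10807 tested genes were, and 1 lower, where 2.6% were. As deposited 11 were higher, against 6.21% of all genes, and 0 lower, against 1.16%. At an unadjusted p under 0.05 the fit with size factors gave 10 higher and 2 lower members, where 8.49% and 11% of all genes were.

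Over all tested members, the called genes included, most fold changes lay above 0. With size factors 44 of 53 had a positive log2 fold change (83%, beside 50.4% of all tested genes). The median of the 53 was 0.18, beside 0.00236 for all tested genes. The scaled values of the groups did not overlap for 18 members that were higher and 2 that were lower, where 11.8% and 12.2% of all tested genes did not. As deposited the median of members was 0.48, beside 0.28 for all tested genes. The plot of fold changes by complex shows that most of these shifts are smaller than 0.4.

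**Figure D1:**
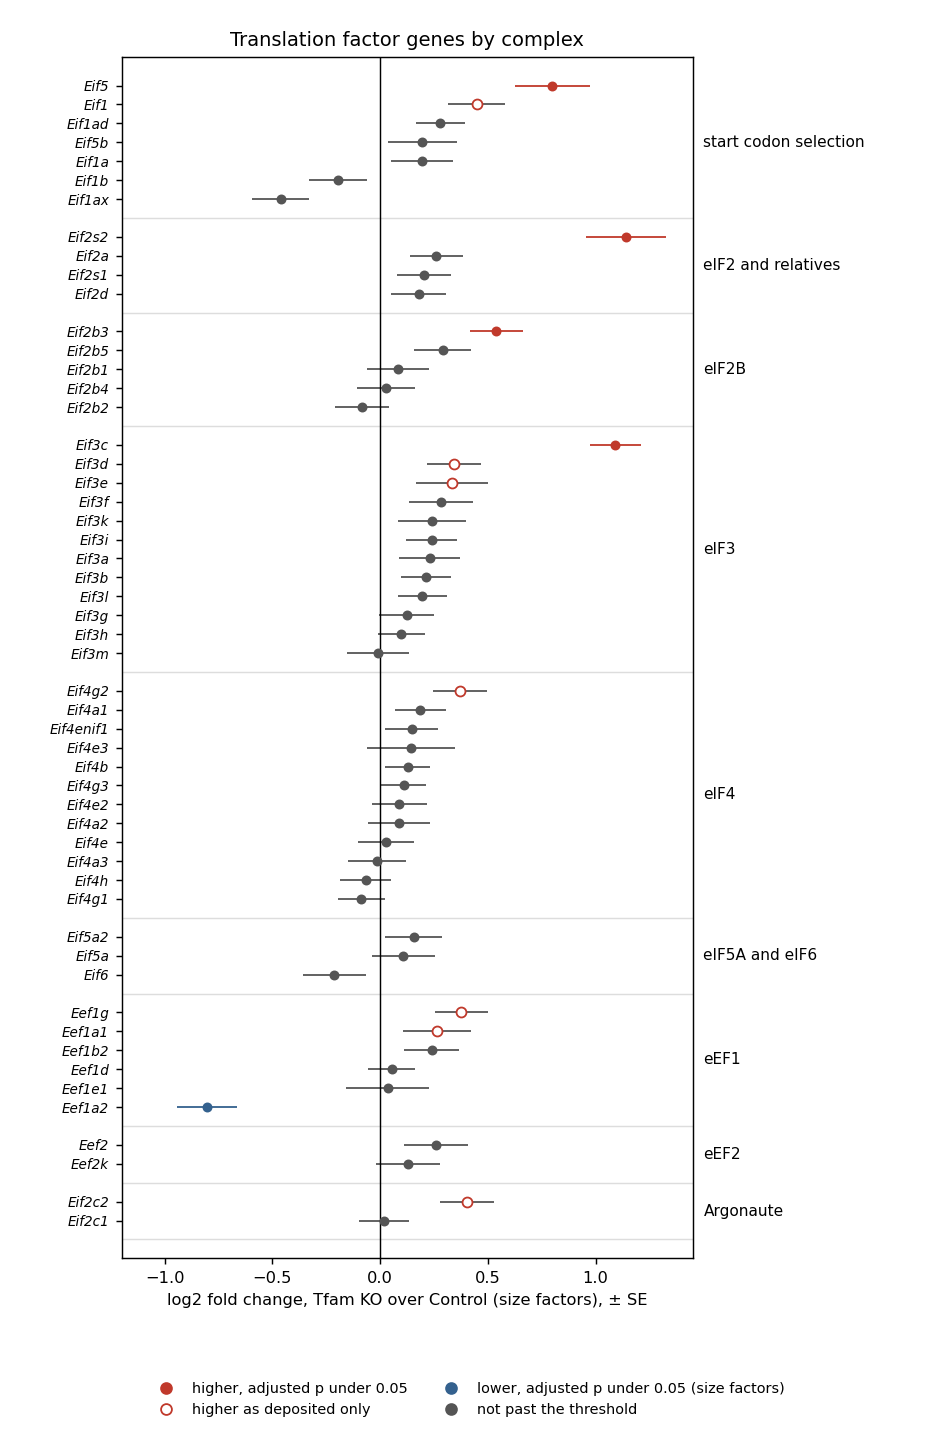
Log2 fold change of the 53 tested members with size factors, Tfam KO over Control, grouped by complex (points: estimates, bars: SE). Filled red points are the 4 genes called higher, open red points those called as deposited only, and the blue point is Eef1a2 at -0.80.

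Of the eIF2 subunits measured, beta rose and alpha did not pass the test. Eif2s2 was at 138, 185 and 251 FPKM in the Tfam KO libraries and 57.6, 63.8 and 78.6 FPKM in the Control libraries. All 3 Tfam KO libraries lay above all 3 Controls, and the lowest Tfam KO library was well above the highest Control. The means were 191 ± 56.8 FPKM in Tfam KO hearts and 66.7 ± 10.8 FPKM in Control hearts (SD, n = 3 each). The Eif2s2 log2 fold change was 1.14 with size factors (SE 0.19, limma adjusted p = 0.00647) and 1.48 as deposited (adjusted p = 7.12e-09). Eif2s1, which encodes the alpha subunit that stress kinases phosphorylate, was at 18.5, 16.5 and 26.5 FPKM in the Tfam KO libraries and 11.5, 14.5 and 15.3 FPKM in the Control libraries. The Eif2s1 groups were separate as deposited and overlapped when scaled, with a log2 fold change of 0.20 with size factors (adjusted p = 0.419) and 0.53 as deposited (adjusted p = 0.134). Within a library the ratio of Eif2s2 to Eif2s1, which needs no common scale, was 7.46, 11.2 and 9.49 in the Tfam KO libraries and 5.02, 4.402 and 5.13 in the Control libraries. This ratio was chosen after its values were seen and is a description. Eif2a and Eif2d, which can also deliver tRNA to the ribosome, did not pass with size factors: 0.26 for Eif2a (limma adjusted p = 0.286) and 0.18 for Eif2d (0.497) on the log2 scale. Eif2d was at 10.4, 6.55 and 10.04 FPKM in the Tfam KO libraries and 5.92, 5.295 and 7.04 FPKM in the Control libraries, and its groups overlapped.

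Eif5 encodes the GTPase-activating protein that acts on eIF2 at the start codon. It was at 73.8, 71.97 and 130.2 FPKM in the Tfam KO libraries and 30.5, 40.3 and 51.3 FPKM in the Control libraries. The groups did not overlap, and as deposited Tfam KO replicate 3 was far above the other libraries. On the size-factor scale Eif5 was at 63.1, 77.8 and 97.8 scaled FPKM in the Tfam KO libraries. The Control libraries were at 37.4, 46.5 and 51.0, also without overlap. The Eif5 log2 fold change was 0.80 with size factors (SE 0.17, limma adjusted p = 0.0281) and 1.13 as deposited (adjusted p = 5.04e-05). The call was lost on leaving out Tfam KO library 2 (adjusted p = 0.0855) or 3 (0.0773), or Control library 1 (0.0964) or 3 (0.0537).

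Eif1, whose product keeps the scanning ribosome from starting at wrong codons, was at 309.8, 238 and 373 FPKM in the Tfam KO libraries and 140.3, 188 and 202 FPKM in the Control libraries. The groups did not overlap as deposited or scaled. The log2 fold change was 0.45 with size factors (adjusted p = 0.0903) and 0.79 as deposited (adjusted p = 0.0101), and limma-voom on recovered reads gave an adjusted p of 0.0406, so it passed as deposited and on reads only. Its paralogue Eif1b was at 14.5, 14.3 and 21.9 FPKM in the Tfam KO libraries and 12.9, 16.3 and 16.5 FPKM in the Control libraries, with a log2 fold change of -0.20 with size factors (adjusted p = 0.478). Eif1ax, which encodes the X-linked eIF1A, was at 36.2, 34.3 and 50.7 FPKM in the Tfam KO libraries and 39.8, 38.1 and 54.96 FPKM in the Control libraries. Its values overlapped as deposited and did not overlap when scaled, where all 3 Tfam KO libraries were lower, with a log2 fold change of -0.46 with size factors (adjusted p = 0.0763) and -0.13 as deposited (adjusted p = 0.695). The autosomal Eif1a was at 10.2, 10.5 and 16.6 FPKM in the Tfam KO libraries and 6.88, 8.03 and 10.2 FPKM in the Control libraries, with a log2 fold change of 0.19 with size factors (adjusted p = 0.519). Eif5b, the GTPase of subunit joining, and Eif1ad did not pass, at 0.19 and 0.28 on the log2 scale (adjusted p = 0.571 and 0.211).

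Among the 5 subunits of eIF2B, Eif2b3 rose. It was at 4.23, 3.51 and 4.24 FPKM in the Tfam KO libraries and 1.66, 1.81 and 2.22 FPKM in the Control libraries. No Tfam KO library was as low as the highest Control. The Eif2b3 log2 fold change was 0.54 with size factors (SE 0.12, limma adjusted p = 0.0341) and 0.79 as deposited (adjusted p = 0.0101). This is a low level, with 182 to 266 reads per Tfam KO library and 84 to 151 per Control library. The call was lost on leaving out Tfam KO library 1 (adjusted p = 0.0828) or 2 (0.119), or any Control library (0.109, 0.0655 and 0.104 for libraries 1, 2 and 3). Eif2b5, the catalytic epsilon subunit and the most abundant of the 5 by FPKM, was at 20.99, 17.8 and 25.3 FPKM in the Tfam KO libraries and 14.5, 13.1 and 12.9 FPKM in the Control libraries. Its groups did not overlap, and its log2 fold change was 0.29 with size factors (adjusted p = 0.265) and 0.61 as deposited (adjusted p = 0.0775). Eif2b2, the beta subunit, was at 8.77, 5.8 and 7.57 FPKM in the Tfam KO libraries and 5.795, 5.705 and 7.03 FPKM in the Control libraries and had the lowest log2 fold change of the 5, -0.08 with size factors (adjusted p = 0.784) and 0.21 as deposited. Eif2b1 (alpha) was at 0.08 and Eif2b4 (delta) at 0.03 on the same log2 scale. Relative to the median of the other 4 subunits in the same library, Eif2b3 was at 0.483, 0.591 and 0.584 in Tfam KO hearts and 0.298, 0.3501 and 0.341 in Control hearts, a description chosen after its values were seen.

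**Figure D2:**
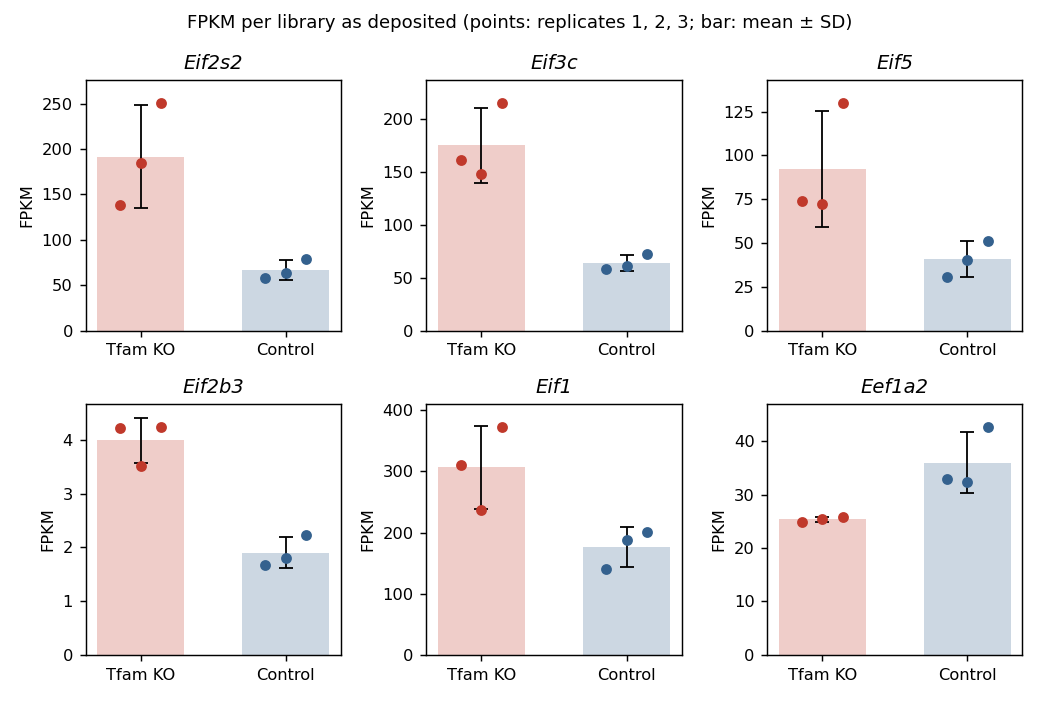
FPKM as deposited in each library for 6 factor genes, Tfam KO left of Control (points: replicates 1, 2 and 3, bars: mean ± SD, n = 3). Eif2s2, Eif3c, Eif5, Eif2b3 and Eif1 are higher in all 3 Tfam KO libraries, and Eef1a2 is lower in all 3.

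The largest initiation complex, eIF3, binds the small subunit and recruits the other factors. Of its 12 tested subunits, Eif3c, which encodes a scaffold subunit of the core, was the 1 that rose. It was at 161, 148 and 215 FPKM in the Tfam KO libraries and 57.9, 61.2 and 72.2 FPKM in the Control libraries. All 3 Tfam KO libraries were above all 3 Controls, with no overlap. The means were 175 ± 35.7 FPKM in Tfam KO hearts and 63.7 ± 7.49 FPKM in Control hearts (SD, n = 3 each). The Eif3c log2 fold change was 1.09 with size factors (SE 0.12, limma adjusted p = 5.19e-04) and 1.43 as deposited (adjusted p = 2.95e-08). The other 11 tested subunits had log2 fold changes with size factors of -0.01 to 0.34, and 0 of them passed in limma or in limma-voom, with 1 (Eif3d) at an unadjusted p below 0.05. As deposited Eif3d and Eif3e passed as well. Of all tested genes 8.49% were higher at the unadjusted p with size factors, and 6.21% passed as higher as deposited.

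Eif3d, a subunit that can bind the cap of some mRNAs, was at 40.3, 26.3 and 39.9 FPKM in the Tfam KO libraries and 22.2, 19.5 and 23.1 FPKM in the Control libraries, with a log2 fold change of 0.34 with size factors (adjusted p = 0.168) and 0.67 as deposited (adjusted p = 0.0493). Eif3e was at 82.6, 77.4 and 138 FPKM in the Tfam KO libraries and 45.5, 64.7 and 73.3 FPKM in the Control libraries. Its log2 fold change was 0.33 with size factors (adjusted p = 0.312) and 0.67 as deposited (adjusted p = 0.0463). Its groups were separate as deposited and overlapped when scaled. Eif3m was at 32.6, 26.1 and 49.2 FPKM in the Tfam KO libraries and 22.4, 29.8 and 31.6 FPKM in the Control libraries and had the lowest log2 fold change of the complex, -0.01 with size factors (adjusted p = 0.976) and 0.32 as deposited (adjusted p = 0.3398). Eif3j, listed at 0 in all 6 libraries, has a near-identical copy, Eif3j2, in the reference annotation. Relative to the median of the other 11 subunits, Eif3c was 3.18, 4.11 and 4.17 times as high in the Tfam KO libraries and 1.89, 2.05 and 2.202 times in the Control libraries. The plot of eIF3 subunits shows the same in scaled values: in Control hearts Eif3c, Eif3a, Eif3e and Eif3h lay close together, and in Tfam KO hearts Eif3c lay above every other subunit.

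**Figure D3:**
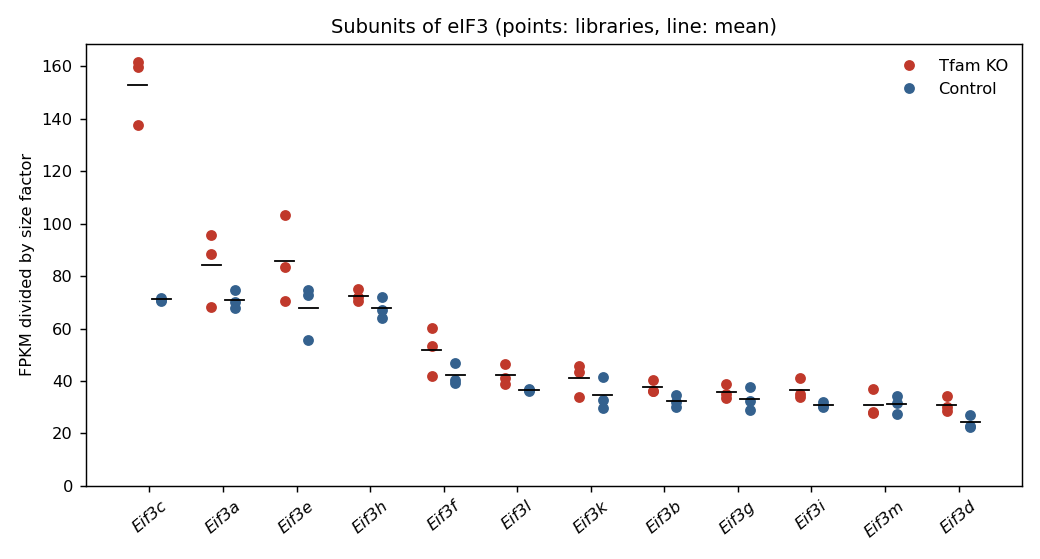
FPKM divided by the library's size factor for the 12 tested eIF3 subunits, Tfam KO left of Control for each gene (points: libraries, lines: means). Eif3c is at 153 ± 13.3 in Tfam KO and 71.1 ± 0.551 in Control hearts (SD, n = 3 each).

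Promoters of the genes that rose were read from RefSeq on GRCm38.p6, a later build than the mm9 named for these libraries. They are shown because these genes rose in the same hearts, and Eif2b3 had no entry in the table. The windows are the 250 bases before the gene start at chr2:154892907-154893156 (minus strand), chr7:126566367-126566616 (minus strand) and chr12:111537851-111538100 (plus strand). Capitals mark a match to any of the 5 motifs searched.
Eif2s2: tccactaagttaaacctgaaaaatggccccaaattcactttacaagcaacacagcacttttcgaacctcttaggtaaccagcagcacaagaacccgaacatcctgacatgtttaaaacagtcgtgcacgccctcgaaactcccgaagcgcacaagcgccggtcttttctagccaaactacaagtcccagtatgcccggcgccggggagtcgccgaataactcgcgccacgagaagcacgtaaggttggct
Eif3c: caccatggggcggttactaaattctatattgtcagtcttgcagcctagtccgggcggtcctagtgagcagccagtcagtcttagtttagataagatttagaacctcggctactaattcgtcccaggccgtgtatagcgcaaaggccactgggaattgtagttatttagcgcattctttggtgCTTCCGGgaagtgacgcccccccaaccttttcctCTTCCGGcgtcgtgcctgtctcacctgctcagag
Eif5: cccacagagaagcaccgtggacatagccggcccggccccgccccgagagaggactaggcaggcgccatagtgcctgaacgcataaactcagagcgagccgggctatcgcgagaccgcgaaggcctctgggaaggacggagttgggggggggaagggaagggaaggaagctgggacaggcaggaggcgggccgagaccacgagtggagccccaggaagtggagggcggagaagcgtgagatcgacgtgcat
On both strands the search covered the C/EBP-ATF composite element TGATGNAA, the cyclic AMP response element TGACGTCA, the CCAAT box, the E-box CACGTG and the ETS site CCGGAAG. A match to the composite element was in none of the 3 windows, and 3.45% of all 32851 windows of this length hold one. Eif3c had 2 ETS sites, both as the reverse complement CTTCCGG, starting 68 and 34 bases before the start, where 6.91% of all windows hold at least 1. Over the 60 windows of the 45 members with an entry, 20% held an ETS site and 21.7% an E-box (all windows, 6.02%). A CCAAT box was in 25% (all windows, 33.8%) and the composite element in 1.67%, the Eef2k window alone. The cyclic AMP response element was in 0 of the 60 (all windows, 1.55%). A member can have several windows, so these are shares of windows and not of members. No 2 matches overlap in the printed windows.

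The eIF4 factors, which bind the cap and unwind the 5′ end of mRNAs, had 0 of 12 tested genes past the limma threshold with size factors, 0 in limma-voom and 1 as deposited. At an unadjusted p under 0.05 with size factors 1 was higher and 0 lower. Over all tested genes 1.99% were higher and 2.6% lower with size factors, and 6.21% and 1.16% as deposited. At the unadjusted p these shares were 8.49% and 11%. Eif4g2, an eIF4G relative that lacks the site for the cap-binding protein, was at 101, 81.97 and 139 FPKM in the Tfam KO libraries and 52.98, 65.5 and 74.9 FPKM in the Control libraries. Its groups did not overlap, and its log2 fold change was 0.37 with size factors (adjusted p = 0.139) and 0.71 as deposited (adjusted p = 0.0324). Eif4g1, the main scaffold, was at 81.98, 60.2 and 86.6 FPKM in the Tfam KO libraries and 58.5, 59.7 and 72.8 FPKM in the Control libraries and had the lowest value of the family, -0.09 with size factors (adjusted p = 0.731) and 0.25 as deposited (adjusted p = 0.454). Eif4a1, the RNA helicase and the most abundant of the family, was at 186, 134 and 228 FPKM in the Tfam KO libraries and 116, 121 and 135 FPKM in the Control libraries, with a log2 fold change of 0.19 with size factors (adjusted p = 0.445) and 0.52 as deposited (adjusted p = 0.121). Eif4e, the cap-binding protein, was at 35.8, 33.01 and 54.6 FPKM in the Tfam KO libraries and 27.4, 30.7 and 35.7 FPKM in the Control libraries, with overlapping groups and a log2 fold change of 0.03 with size factors (adjusted p = 0.936). Eif4a3, despite its name, is a core protein of the exon junction complex. The log2 fold changes of Eif4a3, 6 further eIF4 genes (Eif4a2, Eif4b, Eif4e2, Eif4e3, Eif4g3 and Eif4h) and Eif4enif1 were -0.07 to 0.15 with size factors. Eif4e1b, known from the germ line, was listed at 0 in all 6 libraries.

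Eif5a, whose product needs a hypusine residue to help ribosomes through difficult peptide bonds, was at 182, 130.1 and 160.2 FPKM in the Tfam KO libraries and 121, 107 and 114 FPKM in the Control libraries. The groups were separate as deposited and overlapped when scaled, with a log2 fold change of 0.11 with size factors (adjusted p = 0.758) and 0.44 as deposited (adjusted p = 0.188). The paralogue Eif5a2 was at 3.497, 2.799 and 5.17 FPKM in the Tfam KO libraries and 2.26, 2.36 and 3.06 FPKM in the Control libraries, with overlapping groups and a log2 fold change of 0.16 with size factors (adjusted p = 0.581). Eif6, which keeps the large ribosomal subunit from joining too early, was at 7.36, 5.23 and 6.08 FPKM in the Tfam KO libraries and 6.05, 4.81 and 6.66 FPKM in the Control libraries. The groups overlapped, with a log2 fold change of -0.21 with size factors (adjusted p = 0.4801) and 0.08 as deposited (adjusted p = 0.8196). None of these 3 genes passed in limma or limma-voom, and 0 were below an unadjusted p of 0.05. At that p 8.49% of all tested genes were higher and 11% lower with size factors.

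Elongation factor genes were among the most abundant members. Eef1a1, which delivers aminoacyl-tRNA in most tissues, was the most abundant, at 2297, 2088 and 2681 FPKM in the Tfam KO libraries and 1477, 1483 and 1672 FPKM in the Control libraries. Its groups did not overlap, and its log2 fold change was 0.26 with size factors (adjusted p = 0.415) and 0.60 as deposited (adjusted p = 0.0368). Eef1a2, which takes over from Eef1a1 in adult heart, skeletal muscle and neurons, was at 24.9, 25.4 and 25.9 FPKM in the Tfam KO libraries and 32.9, 32.4 and 42.7 FPKM in the Control libraries. All 3 Tfam KO libraries were below the lowest Control. They were nearly equal as deposited but not on the size-factor scale, at 21.3, 27.5 and 19.4 scaled FPKM in Tfam KO hearts and 40.4, 37.4 and 42.4 in Control hearts. Its log2 fold change was -0.80 with size factors (SE 0.14, limma adjusted p = 0.00922) and -0.48 as deposited (adjusted p = 0.171), so it was lower with size factors only, and without Control replicate 3 the adjusted p was 0.0536 with them. The ratio of Eef1a2 to Eef1a1, which does not depend on the scale of a library, was 1.08, 1.22 and 0.965% in the Tfam KO libraries and 2.23, 2.19 and 2.55% in the Control libraries.

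The start of both coding sequences is shown because the ratio of the pair separates the groups. Their first 120 bases, from the GENCODE vM21 transcripts on GRCm38, differ at 18 positions, shown in capitals.
Eef1a2: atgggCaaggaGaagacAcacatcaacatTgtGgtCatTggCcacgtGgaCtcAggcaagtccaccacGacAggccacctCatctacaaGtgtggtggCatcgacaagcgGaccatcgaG
Eef1a1: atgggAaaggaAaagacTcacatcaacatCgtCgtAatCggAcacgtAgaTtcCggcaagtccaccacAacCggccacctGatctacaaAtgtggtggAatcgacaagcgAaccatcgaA
Over the whole coding sequence they were identical at 80.1% of 1389 aligned bases. In the reference annotation Eef1a1 has 9 other genes that match its coding sequence at 95% identity or more over at least 200 bases, and Eef1a2 has 0. The value of Eef1a1 may therefore depend on how reads that match such copies were counted, which was not tested.

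The exchange factors that recharge eEF1A with GTP are encoded by Eef1b2, Eef1d and Eef1g. Eef1g was at 227, 162 and 239 FPKM in the Tfam KO libraries and 126, 117 and 135 FPKM in the Control libraries. Its groups did not overlap, and its log2 fold change was 0.38 with size factors (adjusted p = 0.119) and 0.71 as deposited (adjusted p = 0.0256). Neither Eef1b2 (0.24, adjusted p = 0.347) nor Eef1d (0.05, 0.849) passed. Eef1e1, a scaffold protein of the aminoacyl-tRNA synthetase complex, was at 8.36, 5.44 and 11.8 FPKM in the Tfam KO libraries and 4.08, 7.16 and 8.25 FPKM in the Control libraries, with overlapping groups and a log2 fold change of 0.04 (adjusted p = 0.942). Eef2, the translocase, was at 351, 250.4 and 311 FPKM in the Tfam KO libraries and 205, 168 and 228 FPKM in the Control libraries. As with Eif5a, the groups were separate as deposited and overlapped when scaled, and the log2 fold change was 0.26 with size factors (adjusted p = 0.393) and 0.60 as deposited (adjusted p = 0.0699). Eef2k, the kinase that switches eEF2 off, was at 3.302, 3.18 and 3.07 FPKM in the Tfam KO libraries and 2.304, 2.19 and 2.19 FPKM in the Control libraries. Its values did not overlap as deposited and overlapped when scaled, with a log2 fold change of 0.13 with size factors (adjusted p = 0.705) and 0.38 as deposited (adjusted p = 0.247).

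**Figure D4:**
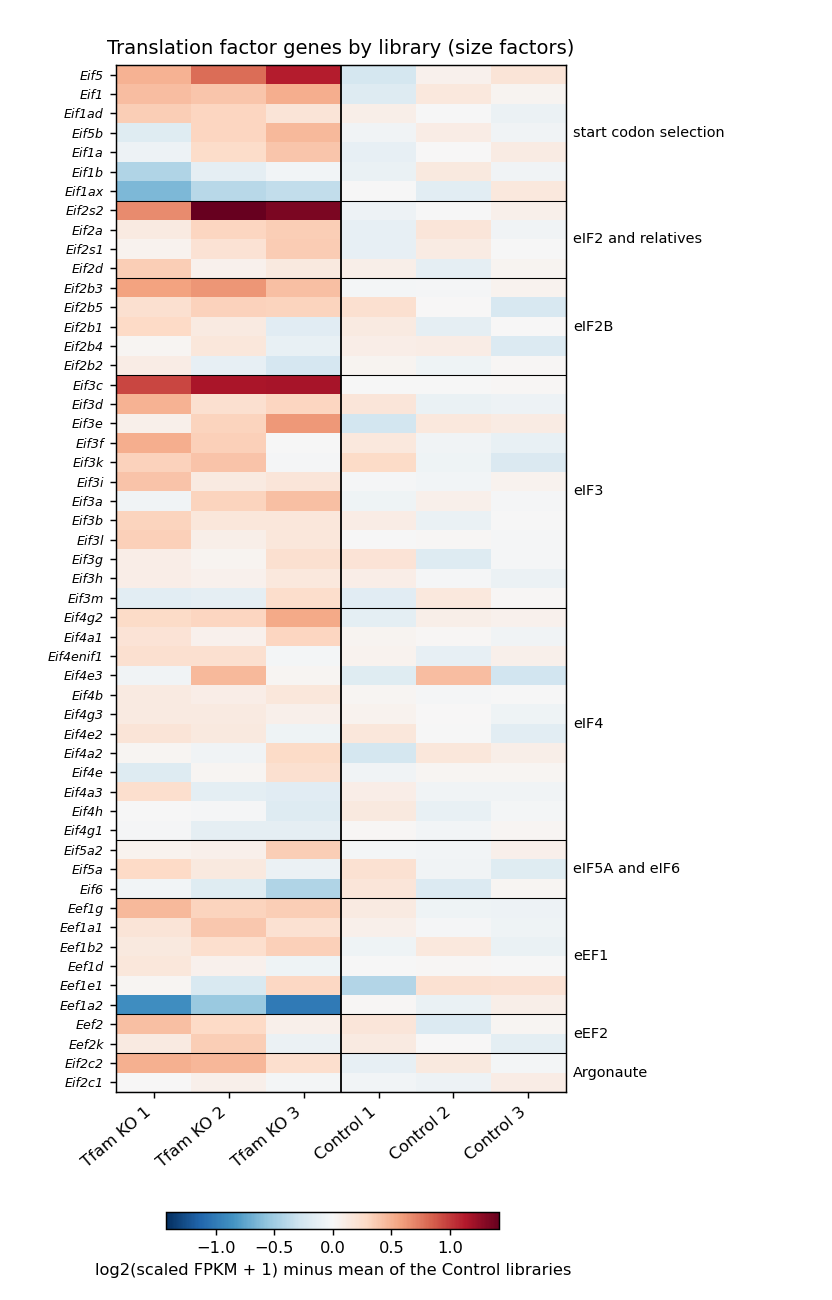
Log2(scaled FPKM + 1) of the 53 tested members in each library, minus the mean of the Control libraries, with genes in rows by complex and Tfam KO libraries left of Control libraries. Eif2s2, Eif3c and Eif5 are the deepest red in the Tfam KO libraries, and Eef1a2 is the deepest blue.

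Ratios of 2 related genes within a library were compared for 8 pairs, and in 5 of them the groups did not overlap. The share of such ratios over other gene pairs was not computed. For single genes the scaled values did not overlap in 11.8% (higher) and 12.2% (lower) of all tested genes. Eif4g2 to Eif4g1 and Eif4g3 to Eif4g1 are both among the 5 and share Eif4g1. With 3 libraries a group the exact two-sided permutation test cannot give a p below 0.1, and all 5 had exact p = 0.1 (0.16 adjusted over the 8 pairs). The ratio of Eef1a2 to Eef1a1 differed by -1.08 on the log2 scale (SE 0.12), a larger difference than in the other pairs. Eif1b to Eif1 was 4.68, 6.02 and 5.88% in the Tfam KO libraries and 9.21, 8.67 and 8.17% in the Control libraries, a difference of -0.66 on the log2 scale (SE 0.12). Eif1a to Eif1ax was 28.3, 30.6 and 32.7% in the Tfam KO libraries and 17.3, 21.1 and 18.6% in the Control libraries, a difference of 0.63 on the log2 scale (SE 0.09).

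In the scaffold family the ratio of Eif4g2 to Eif4g1 was 123, 136 and 160.1% in the Tfam KO libraries and 90.6, 109.7 and 103% in the Control libraries, a difference of 0.46 on the log2 scale (SE 0.14). Eif4g3 to Eif4g1 was 25.4, 27.5 and 26.4% in the Tfam KO libraries and 23.5, 23.8 and 21.6% in the Control libraries, a difference of 0.18 on the log2 scale (SE 0.06). The other 3 pairs overlapped between groups. Their differences were -0.11 on the log2 scale (SE 0.15) for Eif4a2 to Eif4a1 (exact p = 0.5), 0.05 on the log2 scale (SE 0.22) for Eif4e2 to Eif4e (exact p = 0.8) and -0.03 on the log2 scale (SE 0.22) for Eif5a2 to Eif5a (exact p = 1).

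Eif1 and Eif1b encode closely related proteins, and the first 120 coding bases of the genes are shown because their ratio separates the groups. They differ at 19 positions, in capitals.
Eif1b: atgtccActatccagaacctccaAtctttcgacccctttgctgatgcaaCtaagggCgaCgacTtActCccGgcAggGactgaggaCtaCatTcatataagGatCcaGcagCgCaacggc
Eif1: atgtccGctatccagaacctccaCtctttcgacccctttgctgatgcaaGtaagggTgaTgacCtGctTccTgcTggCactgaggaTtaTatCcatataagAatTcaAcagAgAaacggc
Over all 342 coding bases the identity was 81.3%. Eif1 has 13 other annotated genes that match at 95% identity or more over at least 200 bases, and Eif1b has 0. Such copies were found for 18 of the 57 members, and how reads that match them were counted was not tested. Among the 4 genes that rose, Eif2s2 had 1 (Gm9892) and Eif3c, Eif5 and Eif2b3 had 0.

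**Figure D5:**
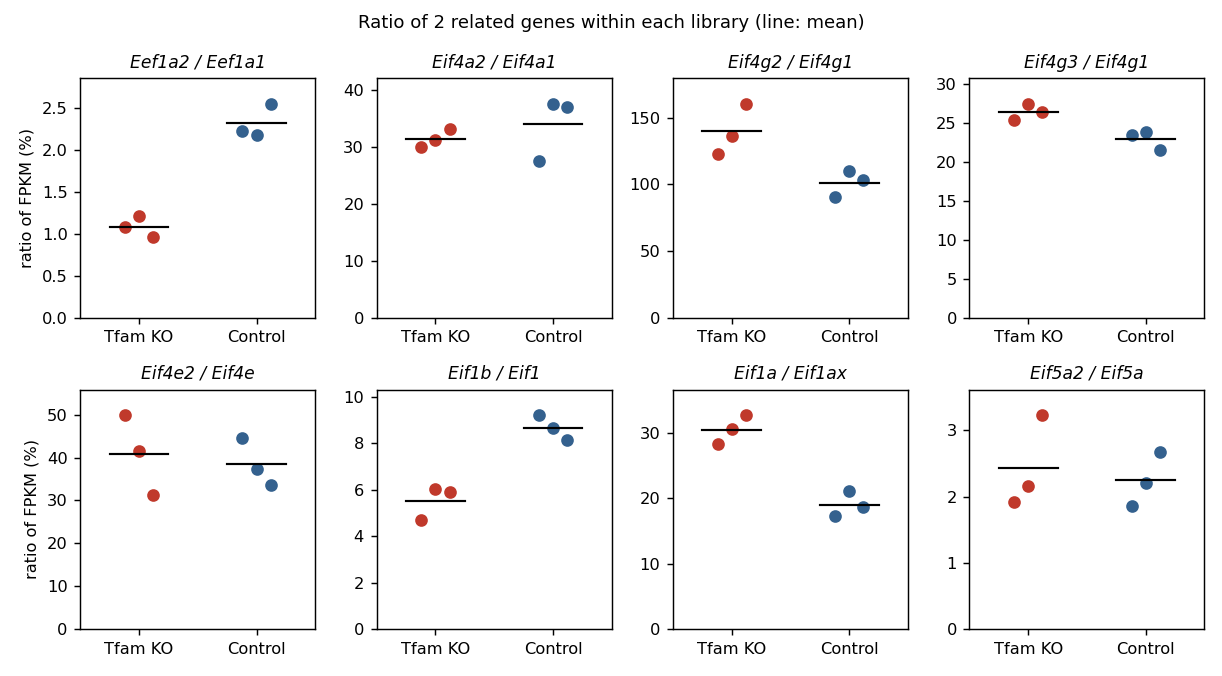
Ratio of the FPKM of 2 related genes in each library, in percent, for 8 pairs, Tfam KO left of Control (points: replicates 1, 2 and 3, lines: means). Eef1a2 to Eef1a1 is at 0.965% to 1.22% in Tfam KO and 2.19% to 2.55% in Control hearts.

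Some factor mRNAs carry a 5′ terminal oligopyrimidine (TOP) tract, known from human cells, through which mTORC1 controls their translation. The 9 members listed as TOP mRNAs (Eef1a1, Eef1b2, Eef1d, Eef1g, Eef2, Eif3e, Eif3f, Eif3h and Eif4b) all had positive log2 fold changes with size factors, from 0.05 to 0.38 with a median of 0.26. Positive values were also common among all tested members (83%, median 0.18), beside 50.4% of all tested genes. With size factors 0 passed in limma and 0 in limma-voom, with Eef1g alone below an unadjusted p of 0.05, and 3 passed as deposited (Eif3e, Eef1g and Eef1a1), where 6.21% of all tested genes were higher. Eif2s2, Eif3c, Eif5 and Eif2b3 are not on that list.

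The Argonaute genes matched by symbol did not pass with size factors. Eif2c2, now Ago2, the slicer of RNA silencing, was at 21.3, 16.3 and 19.9 FPKM in the Tfam KO libraries and 9.35, 12.04 and 12.3 FPKM in the Control libraries. Its groups did not overlap, and its log2 fold change was 0.41 with size factors (adjusted p = 0.105) and 0.72 as deposited (adjusted p = 0.03095). Eif2c1, now Ago1, was at 5.86, 4.91 and 6.45 FPKM in the Tfam KO libraries and 3.93, 4.07 and 5.47 FPKM in the Control libraries, with a log2 fold change of 0.02 with size factors (adjusted p = 0.954). Eif2c3 and Eif2c4 were under the filter, at 0.692 to 1.27 and 0.4401 to 0.6995 FPKM in Tfam KO libraries and 0.677 to 1.09 and 0.385 to 0.568 FPKM in Control libraries.

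Other genes of the pathway changed in single members. Of 11 genes of termination, recycling and ribosome rescue, 1 was called higher and 0 lower with size factors (4 and 1 at an unadjusted p under 0.05), and 3 and 0 as deposited. Over all tested genes 1.99% were higher and 2.6% lower with size factors, 8.49% and 11% at the unadjusted p, and 6.21% and 1.16% as deposited. Abce1, which splits ribosomes after termination, rose. It was at 37.3, 29.1 and 57.4 FPKM in the Tfam KO libraries and 15.7, 20.2 and 25.3 FPKM in the Control libraries, with a log2 fold change of 0.63 with size factors (adjusted p = 0.0479) and 0.95 as deposited (adjusted p = 0.001504). Etf1, the release factor, and Mcts1, a recycling factor, passed as deposited only. Etf1 had a log2 fold change of 0.44 with size factors (adjusted p = 0.0923) and 0.77 as deposited (adjusted p = 0.0172). For Mcts1 it was 0.57 with size factors (adjusted p = 0.0735) and 0.82 as deposited (adjusted p = 0.00653).

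Of 16 genes that act with the cap and the poly(A) tail, 1 was higher and 0 lower on both scales (3 and 2 at an unadjusted p under 0.05 with size factors). The shares over all tested genes were 1.99% and 2.6% with size factors, 6.21% and 1.16% as deposited, and 8.49% and 11% at the unadjusted p. Mknk1, a kinase of eIF4E, rose. It was at 6.97, 5.84 and 7.78 FPKM in the Tfam KO libraries and 2.33, 1.72 and 2.48 FPKM in the Control libraries, with no overlap. The Mknk1 log2 fold change was 1.04 with size factors (SE 0.13, limma adjusted p = 0.00147) and 1.31 as deposited (adjusted p = 5.28e-07). Of 13 tested genes that modify or assemble factors, 0 were higher and 1 lower with size factors (1 and 1 at an unadjusted p under 0.05), and 1 and 1 as deposited. Under the same rules the shares over all tested genes were 1.99% and 2.6%, 8.49% and 11%, and 6.21% and 1.16%. Dohh, the hydroxylase that completes the hypusine of eIF5A, fell. It was at 10.4, 7.27 and 6.42 FPKM in the Tfam KO libraries and 17.1, 12.3 and 16.01 FPKM in the Control libraries, and the highest Tfam KO library was below the lowest Control. The Dohh log2 fold change was -1.16 with size factors (SE 0.21, limma adjusted p = 0.010004) and -0.85 as deposited (adjusted p = 0.00681). Dph5, an enzyme of the diphthamide residue of eEF2, passed as deposited only, with a log2 fold change of 0.50 with size factors (adjusted p = 0.102) and 0.78 as deposited (adjusted p = 0.0141).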

How the data were processed

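Poly(A) RNA of 6 heart libraries was sequenced. Tools named, per the submitters' processing notes, were HTSeq 0.5.3, TopHat2 2.0.7 and CASAVA 1.8.2. They give the build as mm9. The authors deposited 1 table per library with log2(FPKM + 1) per symbol and no positions. How FPKM were made, the annotation and any strand setting are not given in the sources used here, and the log base was worked out from the values.

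Whole reads were recovered from the FPKM steps for all 17876 genes above 0 (tolerance 0.001 of a read plus 1e-06 of the count); a whole factor common to all libraries stays unknown for each gene. FPKM were divided by median-of-ratios size factors (0.815 to 1.33). Log2(scaled FPKM + 1) was fitted for 10807 genes that averaged 1 FPKM or more with limma 3.58.1 (R 4.3.3), with group as the only term, trended moderation, two-sided tests and Benjamini-Hochberg adjustment at 0.05. Fold changes understate low genes. On this scale the prior had 6.14 degrees of freedom, and on the deposited scale it was infinite. The fit was tested on simulated data. Alternatives were the deposited scale, equal library medians, a pseudocount of 0.1, other filters, untrended moderation, robust moderation (chosen after seeing the data), limma-voom on reads, a replicate block and leaving out each library. Coding sequences were compared with Biopython 1.88 and copies searched with blastn 2.17.0.

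Named members were those past the threshold on either scale and, in each complex, the most abundant and those with the highest and lowest fold change. Other members given with values complete a complex or a pair and were chosen after their values were seen. The members and lists were chosen with earlier results of these data known. With size factors, p-values measure the spread between pools of hearts, moderated over genes. As deposited, with the infinite prior, the spread used for each gene was a trend fitted over all genes. Limma p-values on the deposited scale therefore do not measure how far a gene's own pools scatter.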

Additional observations from a re-analysis of the deposited data

How the results depend on the processing

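Eif2s2 and Eif3c stayed past the threshold, in the same direction, under all 15 alternatives run, with log2 fold changes of 1.01 to 1.48 and 1.05 to 1.43. The number of factor genes called higher was 11 as deposited and 2 with no filter, where 4 were called with size factors, and 2 to 3 when 1 library was left out. The number called lower was 0 as deposited and 0 to 1 when 1 library was left out. With no filter the adjusted p of Eif5 and Eif2b3 was 0.09597 and 0.09196, in a test over more genes. Over all genes the deposited scale called 671 higher and 125 lower, against 215 and 281 with size factors. The lower calls over all genes were 144 with no filter and 460 with limma-voom, and leaving out 1 library gave 133 to 213 higher and 126 to 350 lower, both fewest without Control replicate 3. Lower calls were also down by over 1.5 times without Control replicate 1 (153) or Tfam KO replicate 3 (158). As deposited the log2 fold changes of Eif2b2, Eif3m, Eif4g1 and Eif6 were 0.21, 0.32, 0.25 and 0.0777, the reverse of their sign with size factors, and that of Eif3m was 0.0315 with equal library medians. Leaving out 1 library gave -0.138 to 0.0654 for Eif3m and -0.0134 to 0.0717 for Eif2c1, which crossed 0. The difference in the ratio of Eif5a2 to Eif5a was 0.0794 with a pseudocount of 0.1 and 0.0957 with none, and -0.20 to 0.12 when 1 library was left out, where that of Eif4e2 to Eif4e was -0.10 to 0.23. None of these reversed values passed a test, and the cause was not tested. Same-numbered libraries of the groups deviated together with correlations of 0.359, 0.0681 and 0.16, and 4 of 6 correlated best with their own number. These values do not settle whether the numbers mark pairs, and the main fit did not take them as pairs. With the replicate block 4 factor genes were called higher and 1 lower, the same genes as without it. Over all genes the block gave 278 higher and 421 lower, against 215 and 281 without it. Depth limits Eif2c3, Eif2c4 and Eef1e1, the members above 0 with the fewest reads.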
